A study of Mus musculus with 6 samples.

Results

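Endothelial cells line the blood vessels, the lymphatics and the chambers of the heart, and they form the dense capillary bed that feeds heart muscle. They are recognised by junction proteins, by the receptors for vascular endothelial growth factors (VEGF) and angiopoietins, and by transcription factors of the ETS, SOX and bHLH families. Arteries, veins, capillaries, lymphatics and endocardium each add genes of their own, and the Notch and ephrin systems keep arteries and veins apart. Here 36 such marker genes were followed in the left ventricle of mice lacking MURC, a muscle protein of caveolae, the small pits of the cell membrane. A gene was taken when a probe set carried its symbol alone, and of several the brightest on average would represent the gene. By that rule 35 of the 36 genes were measured, each by 1 probe set, among 19938 genes named in the whole table. Selp was not analysed here.

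The 6 arrays came from male C57BL/6 mice, 3 with the MURC knockout genotype, aged 11, 11 and 13 weeks, and 3 wild type, aged 13, 13 and 12 weeks. The labels give no further allele and no treatment, do not say how the knockout was made or in which cells MURC was lost, and do not say whether the 3 samples of a genotype are separate animals. Samples of unlike age must be separate animals, since a ventricle is taken once, while those of the same age may not be. The p-values are therefore based on a spread between samples that may be technical in part. Values are log2 signals as the authors deposited them, differences are knockout minus wild type, and a signal of 1 probe set cannot be set against that of another. In a whole ventricle, fewer endothelial cells and less RNA per endothelial cell cannot be told apart.

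The labels were checked first. Cavin4, which encodes MURC, measured 5.38, 5.74 and 5.59 in the knockout, against 8.75, 8.62 and 8.07 in the wild type. It was the single probe set past the adjusted threshold of 0.05 among 24898 tested, or 0.00402%, while 130 passed after quantile normalization and 105 after median centring. All 9 heart muscle markers were bright, with signals between 11.48 and 13.26 on the 6 arrays. Knockout replicate 2 stood apart in atrial genes: the atrial light chain gene Myl7 measured 3.87, 7.22 and 4.11 in the knockout, against 4.06, 3.90 and 3.61 in the wild type, and Myl4 showed the same high array. The mean signal of 4 atrial genes ranged from 5.74 to 7.71 in the knockout, against 5.62 to 5.97 in the wild type. Wild-type replicate 1 had the highest median of all probe sets, 4.71, against 4.60 to 4.65 on the other 5 arrays.

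No endothelial marker passed the adjusted threshold in limma, whose smallest adjusted p among the 35 was 0.195. At an unadjusted p under 0.05 there were 3 members, the tight junction gene Cldn5 and the lymphatic regulator gene Prox1 with lower signals and the capillary gene Rgcc with a higher one. Of all probe sets tested 13.7% had such a p, 9.02% lower and 4.71% higher in the knockout. Of the 35 differences 14 were below 0, against 59.1% of all probe sets. Their median was 0.05, or 0.09 after quantile normalization, with a range of -0.40 to 0.36, and the median of all probe sets was -0.04, or -0.01 after quantile normalization. Without knockout replicate 2, the array with atrial signal, the median was 0.02, and the differences were -0.41 for Cldn5, 0.40 for Rgcc and -0.40 for Prox1. The median was -0.03 without wild-type replicate 3. The members with an unadjusted p under 0.05 were then 7, beside 13.4% of all probe sets in the same fit. Without wild-type replicate 1 they were also 7, beside 12.5%, and without knockout replicate 3 they were 1, beside 9.24%. The genotypes did not overlap at 6 members, where 19% of all probe sets did not. Lower without overlap were 3, Cldn5, Prox1 and the adhesion gene Icam2, against 12.9% of all probe sets, and higher were 3, Rgcc, Flt1 and Ptprb, against 6.12%. At 13 members every knockout array lay within the range of the wild-type arrays, or 37.1%, against 21.9% of all probe sets.

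The arrays limited these differences to narrow intervals. For 31 of the 35 members the 95% interval of the difference lay within 1.5-fold in both directions, and for 15 it lay within 1.25-fold. The same was true of 81.7% and 34.4% of all probe sets. The 4 intervals that reached past 1.5-fold belonged to Cldn5, Aplnr, Rgcc and Prox1. Those of Cldn5 and Rgcc were no wider than that of Car4, -0.14 to 0.49, which stayed within the bound. In the plot of differences with their intervals the other 31 genes lie close to 0.

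**Figure D1:**
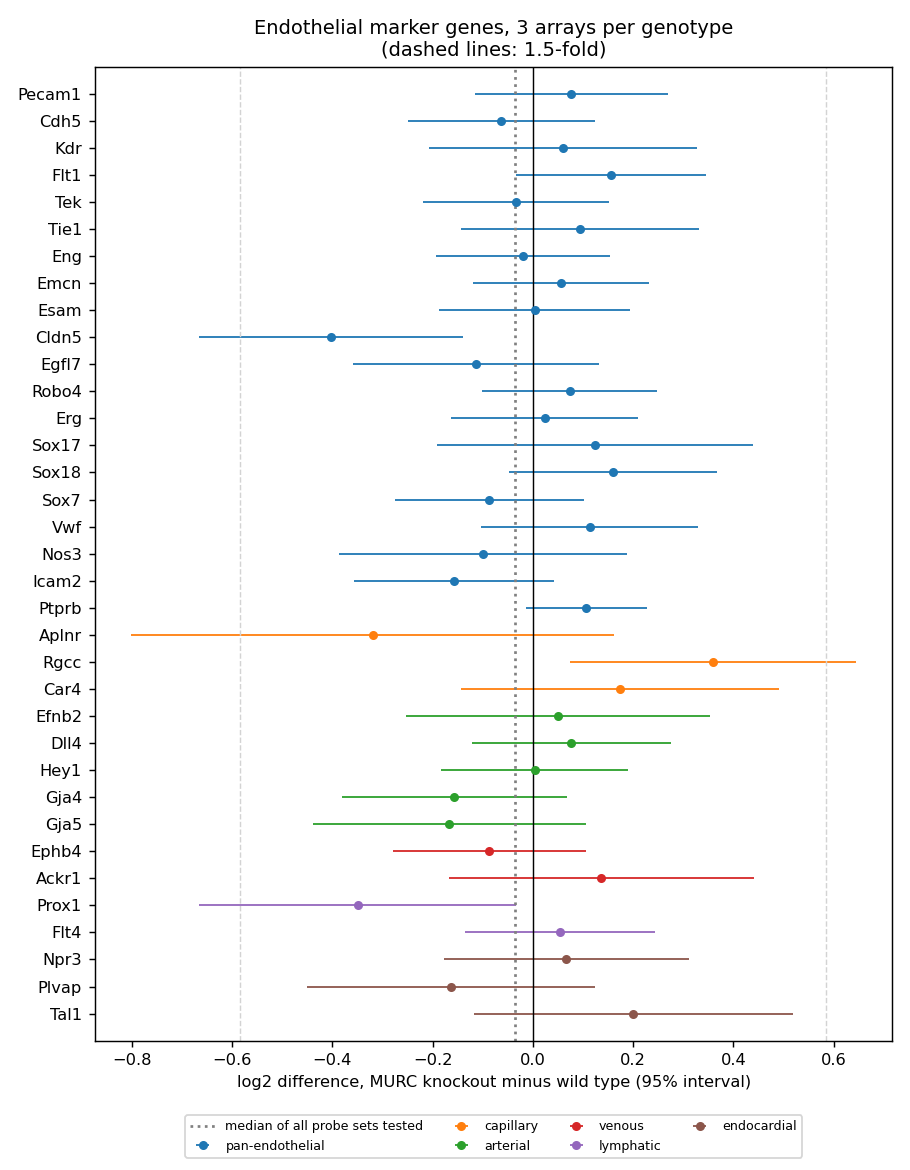
Difference in log2 signal between MURC knockout and wild type for 35 endothelial genes (points) with 95% intervals from limma (bars), 3 arrays per genotype, coloured by vessel type. The intervals of Cldn5, Rgcc and Prox1 leave out 0, and no gene passed the adjusted threshold.

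Cldn5 encodes claudin-5, the main tight junction protein of endothelium. It measured 6.06, 6.22 and 6.34 in the knockout, against 6.77, 6.62 and 6.44 in the wild type. Every knockout array lay below every wild-type array, although the gap between the nearest arrays was smaller than the spread within either genotype. The means were 6.21 ± 0.14 in the knockout and 6.61 ± 0.17 in wild type (SD, n = 3 each), a log2 difference of -0.40 (SE 0.11, 95% interval -0.67 to -0.14), or 1.32-fold lower (limma adjusted p = 0.195, from an unadjusted p of 0.00812). With age as a covariate the difference was -0.27.

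Rgcc, a regulator of the cell cycle enriched in capillary endothelium of the mouse heart, measured 7.78, 7.79 and 8.05 in the knockout, against 7.53, 7.30 and 7.71 in the wild type. The groups did not overlap, and knockout replicate 3 was the highest array. The means were 7.87 ± 0.15 in the knockout and 7.51 ± 0.21 in wild type (SD, n = 3 each), a log2 difference of 0.36 (SE 0.12, 95% interval 0.07 to 0.65), or 1.28-fold higher (limma adjusted p = 0.268, from an unadjusted p of 0.02). Without knockout replicate 3 it was 0.27 and without wild-type replicate 2 it was 0.25, with unadjusted p of 0.0692 and 0.0637 in limma.

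The sequences upstream of Cldn5 and Rgcc are shown because these genes had the lowest and the highest difference of the 35. Each is the 250 bases before the transcript start in RefSeq on GRCm38.p6, at chr16:18776597-18776846 on the plus strand and chr14:79301636-79301885 on the minus strand, and capitals mark an ETS core.
Cldn5: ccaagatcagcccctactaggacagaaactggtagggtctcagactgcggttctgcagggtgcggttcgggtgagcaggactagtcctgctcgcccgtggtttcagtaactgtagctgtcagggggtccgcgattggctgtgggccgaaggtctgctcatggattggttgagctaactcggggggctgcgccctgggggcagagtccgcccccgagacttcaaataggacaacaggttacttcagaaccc
Rgcc: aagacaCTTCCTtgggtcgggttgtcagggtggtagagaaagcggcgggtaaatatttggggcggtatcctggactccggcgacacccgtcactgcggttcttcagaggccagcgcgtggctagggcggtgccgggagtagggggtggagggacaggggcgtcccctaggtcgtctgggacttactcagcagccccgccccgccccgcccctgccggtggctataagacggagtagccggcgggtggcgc
The cores searched were CGGAAG and AGGAAG on both strands of windows running from 250 bases before to 50 after the start. The Rgcc window held 1 and the Cldn5 window 0. RefSeq windows were at hand for 22 of the 35 members, and 12 of their 28 windows, or 42.9%, held an ETS core, against 46.5% of 32851 windows of all genes. A GATA core, AGATAA, was in 14.3% of the members' windows and 11.2% of all windows, and a SOX core, ACAAAG or ACAATG, in 25% and 28.6%. The members' windows were richer in G and C, with a median of 58.7%, against 52.7% in all windows. These letter matches are a description of the windows and say nothing of binding.

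The junction and adhesion genes other than Cldn5 stayed within 0.16 of 0. Cdh5, the cadherin that holds endothelial cells together, measured 9.71, 9.75 and 9.75 in the knockout, against 9.95, 9.80 and 9.65 in the wild type. The knockout arrays were nearly equal and sat inside the wider wild-type range, and the difference was -0.06 (95% interval -0.25 to 0.12). Pecam1, an adhesion molecule of the same junctions, measured 8.46, 8.40 and 8.61 in the knockout, against 8.51, 8.43 and 8.30 in the wild type. Its difference was 0.08 (95% interval -0.12 to 0.27), also with overlapping groups. Esam, another adhesion molecule at tight junctions, differed by 0.00 and Icam2, a ligand for leukocyte integrins, by -0.16. Icam2 measured 6.87, 6.92 and 6.90 in the knockout, against 7.21, 7.01 and 6.94 in the wild type. Its groups were 0.02 apart between the nearest arrays, and without wild-type replicate 1 the difference was -0.08. The sialomucin gene Emcn differed by 0.06.

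Among the VEGF receptors, Kdr, which carries most VEGF-A signalling in endothelium, measured 8.98, 8.90 and 8.89 in the knockout, against 8.98, 9.02 and 8.59 in the wild type. The knockout arrays lay within the wild-type range and the difference was 0.06 (95% interval -0.21 to 0.33). Flt1, the receptor that binds VEGF-A, VEGF-B and placental growth factor, measured 9.11, 9.13 and 9.21 in the knockout, against 9.09, 8.83 and 9.06 in the wild type. Its groups did not overlap, by 0.02 between the nearest arrays, and the difference was 0.16 (95% interval -0.03 to 0.35, limma adjusted p = 0.457), or 0.08 without wild-type replicate 2. Flt4, the VEGF-C receptor of lymphatics, differed by 0.05. Of the ligands, Vegfb measured 9.35, 9.47 and 9.06 in the knockout, against 9.96, 9.83 and 9.74 in the wild type, a difference of -0.55 (limma adjusted p = 0.109). The Vegfb groups were 0.27 apart between the nearest arrays. Vegfa, Vegfc, Vegfd and Pgf differed by 0.07, 0.11, 0.21 and 0.21, each with overlapping groups.

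The angiopoietin receptor Tek and its partner receptor Tie1 differed by -0.03 and 0.09. Ptprb, the endothelial phosphatase that restrains Tek, measured 9.23, 9.18 and 9.24 in the knockout, against 9.12, 9.09 and 9.12 in the wild type. It had the smallest wild-type spread of the 35 genes, so a small difference of 0.11 (95% interval -0.01 to 0.23, limma adjusted p = 0.424) separated the groups. The ligand genes Angpt1 and Angpt2 differed by -0.10 and 0.00. Eng, a co-receptor for BMP and TGF-beta ligands, differed by -0.02, and Acvrl1, the receptor it works with, by 0.03. Egfl7, a secreted endothelial protein, and Robo4, a guidance receptor that stabilises vessels, differed by -0.11 and 0.07.

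Endothelial transcription factors and products gave small differences too. Erg, the ETS factor that maintains endothelial identity, measured 6.87, 6.93 and 6.97 in the knockout, against 7.02, 6.88 and 6.80 in the wild type, and differed by 0.02. The factors Sox17, Sox18 and Sox7 differed by 0.12, 0.16 and -0.09 with overlapping groups, so the SOX genes had no shared sign. Nos3, the endothelial nitric oxide synthase, which is held inactive by caveolin-1 in endothelial caveolae, measured 6.45, 6.56 and 6.41 in the knockout, against 6.76, 6.65 and 6.31 in the wild type. Its difference was -0.10 (95% interval -0.39 to 0.19) and wild-type replicate 3 was the lowest of the 6 arrays. Without that array the difference was -0.23, and without wild-type replicate 1 it was -0.01. Cav1, the caveolin of endothelium, differed by -0.08. Vwf, the adhesive glycoprotein that endothelium stores and releases, differed by 0.11.

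The capillary genes did not share a direction. Aplnr, the apelin receptor, measured 6.78, 6.75 and 6.56 in the knockout, against 7.32, 7.23 and 6.50 in the wild type. Wild-type replicates 1 and 2 were above every knockout array and replicate 3 was below them all. The difference was -0.32 (SE 0.21, 95% interval -0.80 to 0.16, limma adjusted p = 0.565). Without wild-type replicate 3 it was -0.58, with an unadjusted p of 0.000692 in limma. Over 16 alternative analyses the Aplnr difference ranged from -0.58 to -0.17, and 1 of them had an unadjusted p under 0.05. Apln, its ligand gene, measured 6.06, 6.03 and 6.09 in the knockout, against 6.46, 6.70 and 6.30 in the wild type, a difference of -0.43 (limma adjusted p = 0.161). Its groups did not overlap. Car4, a carbonic anhydrase on the capillary surface, differed by 0.17 with overlapping groups, and without wild-type replicate 1 by 0.32 (with an unadjusted p of 0.0129 in limma). The Car4 difference ranged from 0.09 to 0.32 over the 16 alternatives, and 1 of them had an unadjusted p under 0.05.

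**Figure D2:**
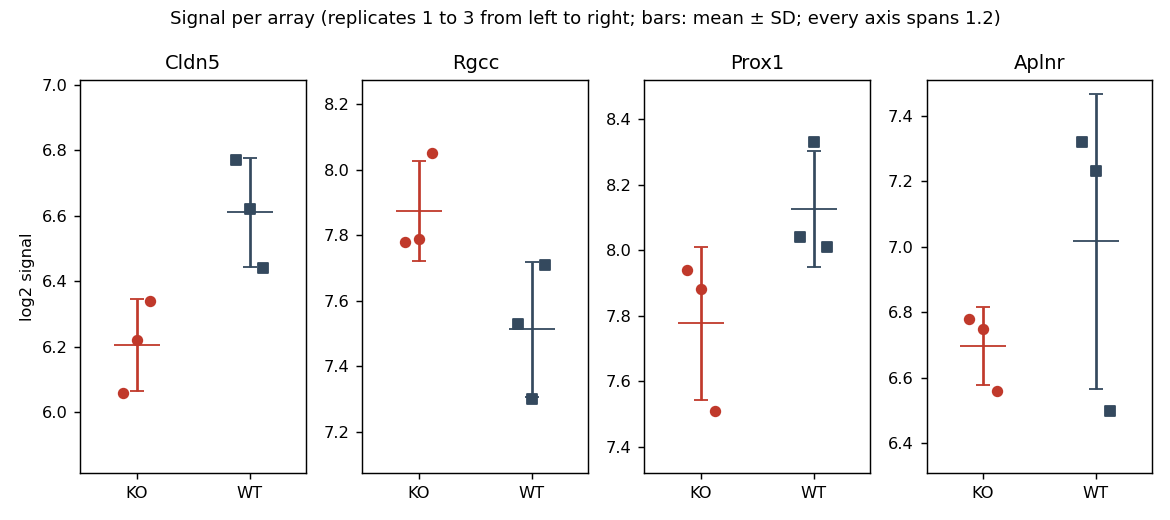
Log2 signal of Cldn5, Rgcc, Prox1 and Aplnr on each array, MURC knockout left and wild type right, with mean and SD of 3 arrays. Cldn5, Rgcc and Prox1 do not overlap between genotypes, and Aplnr has a single low wild-type array at 6.50.

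Arterial genes were represented by the ephrin ligand gene Efnb2, the Notch ligand gene Dll4, the Notch target Hey1 and the connexin genes Gja4 and Gja5. Gja4 had the smallest p of the 5 and measured 5.50, 5.40 and 5.44 in the knockout, against 5.70, 5.45 and 5.66 in the wild type. Its groups overlapped only through wild-type replicate 2, and the difference was -0.16 (limma adjusted p = 0.544). Gja5, which the cardiac conduction system also expresses, differed by -0.17 with overlapping groups. It measured 5.11, 5.04 and 5.24 in the knockout, against 5.47, 5.30 and 5.12 in the wild type. Efnb2, Dll4 and Hey1 differed by 0.05, 0.08 and 0.00. The Notch receptor genes Notch1 and Notch4 differed by -0.10 and 0.05, and the ligand genes Jag1 and Jag2 by 0.07 and -0.04. None of these Notch genes had an unadjusted p under 0.05.

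Ephb4, the venous receptor for ephrin-B2, measured 7.20, 7.17 and 7.08 in the knockout, against 7.29, 7.32 and 7.10 in the wild type, and differed by -0.09 (limma adjusted p = 0.711). Ackr1, a chemokine-binding receptor of venules, was dim, at 3.48, 3.67 and 3.84 in the knockout, against 3.50, 3.54 and 3.54 in the wild type, where the filter on dim probe sets stood at 3.45. Background can compress a difference at such a signal, and the measured one was 0.14.

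Prox1, the transcription factor that sets lymphatic identity, is also expressed by heart muscle cells in the mouse, so its signal in a ventricle is not that of lymphatics alone. It measured 7.94, 7.88 and 7.51 in the knockout, against 8.04, 8.33 and 8.01 in the wild type. The nearest arrays were 0.07 apart, and knockout replicate 3 and wild-type replicate 2 were the extremes. The means were 7.78 ± 0.23 in the knockout and 8.13 ± 0.18 in wild type (SD, n = 3 each), a log2 difference of -0.35 (SE 0.13, 95% interval -0.67 to -0.03), or 1.27-fold lower (limma adjusted p = 0.322, from an unadjusted p of 0.0342). Without knockout replicate 3 it was -0.22 and without wild-type replicate 2 it was -0.25, with unadjusted p of 0.0972 and 0.115 in limma. It was -0.30 after quantile normalization and -0.33 after median centring, with unadjusted p of 0.0525 and 0.0615. Of 5 further lymphatic genes measured, 0 passed the adjusted threshold and 1 had an unadjusted p under 0.05, where 13.7% of all probe sets had such a p. That gene was Lyve1, at -0.39. Without wild-type replicate 3 its difference was -0.20, with an unadjusted p of 0.0841 in limma. Lyve1 is also carried by resident macrophages. Of 8 leukocyte markers tested 7 were below 0 as well, against 59.1% of all probe sets. The mean log2 signal over 9 leukocyte genes was 6.03 to 6.25 in the knockout, against 6.13 to 6.45 in the wild type. That mean includes a gene too dim to be tested. The part of macrophages in the Lyve1 value was not tested. Foxc2, Reln, Mmrn1 and Pdpn differed by -0.11, 0.08, 0.04 and -0.02.

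Endocardial genes overlapped between genotypes. Tal1, a bHLH factor shared by endocardium and blood cell precursors, measured 5.51, 5.60 and 5.77 in the knockout, against 5.16, 5.52 and 5.60 in the wild type, a difference of 0.20 (limma adjusted p = 0.59). Wild-type replicate 1 was the low array, and without it the difference was 0.07. Npr3, the natriuretic peptide clearance receptor of endocardium, differed by 0.07 and Plvap, the diaphragm protein of fenestrated endothelium, by -0.16. Without knockout replicate 2, the array with atrial signal, Npr3, Plvap and Tal1 differed by 0.07, -0.24 and 0.21.

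The arrays of a genotype also differed among themselves. The wild-type SD was the larger at 24 of 35 members, or 68.6%, against 57.5% of all probe sets, and the median SD was 0.08 among knockout arrays and 0.14 among wild-type arrays, where all probe sets had 0.11 and 0.13. Wild-type replicate 1 was the highest of its genotype at 17 of the 20 pan-endothelial genes, or 85%, against 51.3% of all probe sets, and replicate 3 was the lowest at 12, or 60%, against 41%. On knockout replicates 1, 2 and 3 the genes that were highest numbered 6, 6 and 7, and those that were lowest 9, 4 and 7. As a median over the 20 genes, the deviation from each gene's mean was -0.01, 0.01 and -0.01 on the knockout arrays, against 0.11, -0.05 and -0.07 on the wild-type arrays. Over all probe sets this deviation was -0.02, -0.01 and -0.02 in the knockout, against 0.08, -0.003 and -0.01 in the wild type. After quantile normalization the median over the 20 genes was -0.01, 0.03 and 0.03 in the knockout, against 0.04, -0.06 and -0.06 in the wild type. The height of wild-type replicate 1 thus depended in part on the scaling. The map of deviations shows this column by column.

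**Figure D3:**
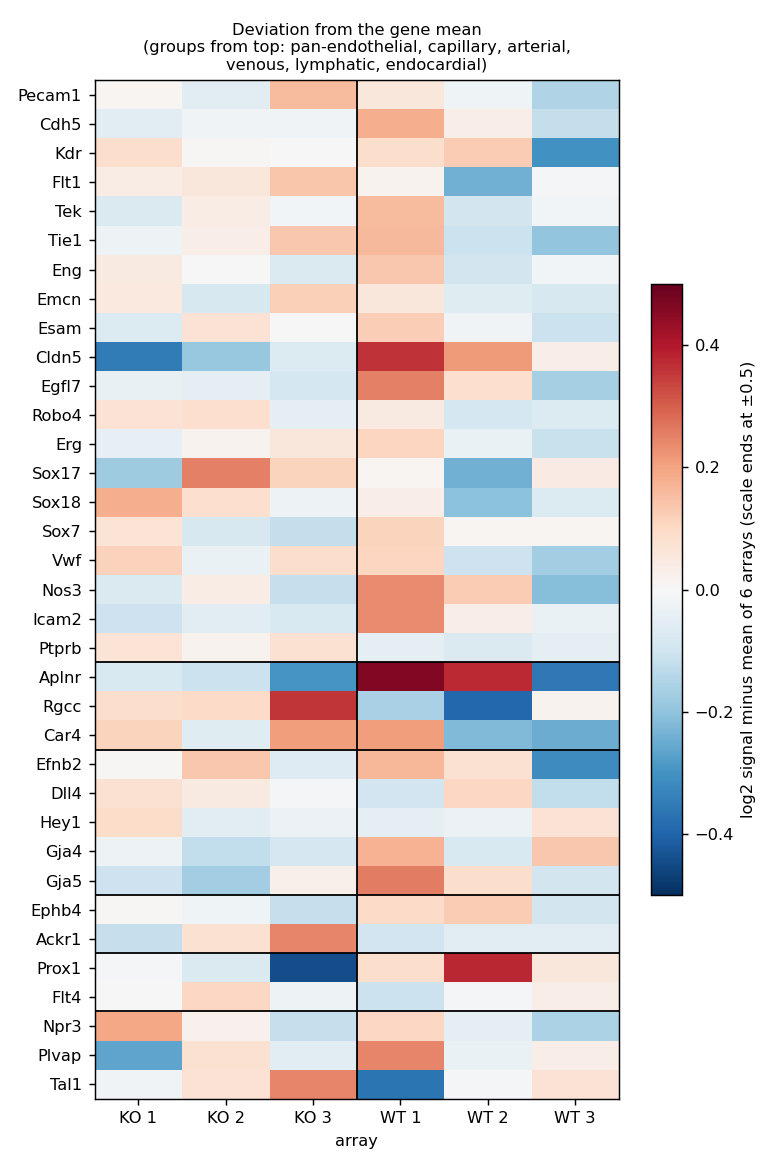
Deviation of each of 35 endothelial genes (rows, by vessel type) from its mean over the 6 arrays (columns, knockout left), in log2 signal, red above and blue below. Wild-type replicate 1 is mostly red and replicate 3 mostly blue among the pan-endothelial genes, while the knockout columns are paler apart from a few genes such as Cldn5, Rgcc and Prox1.

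Of 30 other endothelial receptors and regulators, 0 passed the adjusted threshold and 2 had an unadjusted p under 0.05. Of their differences 11 were above 0 and 19 below, where 59.1% of all probe sets were below. The median was -0.03, or 0.00 after quantile normalization. The BMP receptor gene Bmpr2 measured 9.62, 9.65 and 9.50 in the knockout, against 9.82, 9.77 and 9.82 in the wild type, a difference of -0.21 (limma adjusted p = 0.194), with no overlap. Clec14a, a lectin of endothelial cells, differed by 0.21, Gimap4 by -0.15 and the flow-responsive factor gene Klf2 by 0.16. Of 16 ligand genes tested, 3 had an unadjusted p under 0.05, Vegfb, Apln and Fgf2, each below 0, where 13.7% of all probe sets had such a p and 9.02% had it with a difference below 0. Fgf2 differed by -0.49 (limma adjusted p = 0.0923).

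Endothelium of heart capillaries also passes fatty acids to the muscle, and 9 genes of that task or enriched in those capillaries were measured. Gpihbp1, which holds lipoprotein lipase on the capillary wall, differed by 0.13, the fatty acid binding protein gene Fabp4 by 0.14 and the fatty acid translocase gene Cd36 by -0.04. Timp4, an inhibitor of metalloproteinases, measured 8.21, 8.28 and 8.52 in the knockout, against 7.67, 7.62 and 7.98 in the wild type. Its groups did not overlap, and its difference of 0.58 (limma adjusted p = 0.112) was the largest of these 9. Heart muscle also makes Timp4, so its source in the ventricle is not given by the array.

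The other cell types of the vessel wall did not share the sign of the endothelial median of 0.05 throughout. Of 7 pericyte markers 5 were below 0, against 59.1% of all probe sets, and their median was -0.14, against -0.04 for all probe sets. The potassium channel subunit genes Abcc9 and Kcnj8 differed by -0.30 and -0.27, and the array does not give their cell source in the ventricle. These 2 had an unadjusted p under 0.05 in limma, where 9.02% of all probe sets had such a p with a lower signal. Without wild-type replicate 2 Kcnj8 differed by -0.18. Of 5 smooth muscle markers 4 were above 0, against 10175 of all 24898 probe sets tested. Their median was 0.16, led by the smooth muscle myosin gene Myh11 at 0.35 and Tagln at 0.42. Wild-type replicate 1 was the low array for smooth muscle genes, with a median deviation of -0.24 from the gene means, and without it Tagln differed by 0.26 and Myh11 by 0.32. Fibroblast markers had a median of -0.02, or 0.02 after quantile normalization, and heart muscle markers one of 0.01. Of 4 platelet, 2 red cell and 4 mesothelial markers tested, 0 had an unadjusted p under 0.05, against 13.7% of all probe sets. No gene of these lists passed the adjusted threshold in limma, and no difference between lists was tested. The plot of differences by list shows the pan-endothelial genes clustered around 0 with Cldn5 as the one distant point.

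**Figure D4:**
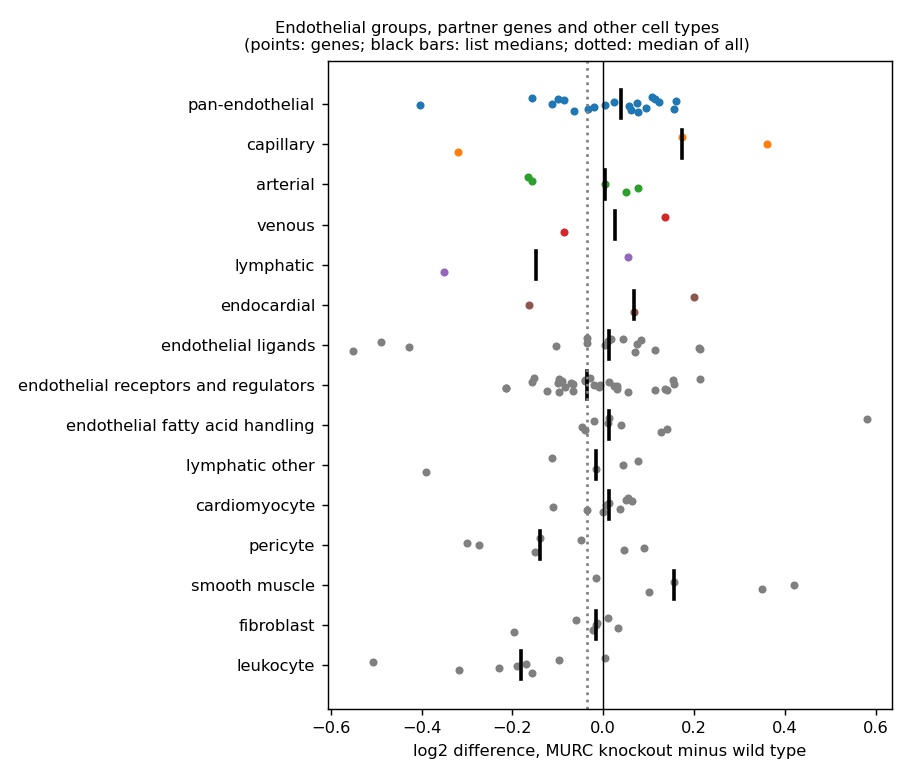
Difference in log2 signal, MURC knockout minus wild type, for each gene (points) in 6 endothelial groups, 4 lists of partner genes and 5 other cell types, with list medians (black bars). The pan-endothelial median is 0.04, the smooth muscle median 0.16, the pericyte median -0.14 and the leukocyte median -0.18.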

How the data were processed

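Total RNA from the left ventricle was extracted with TRIzol and 100 ng was biotin-labelled for Affymetrix arrays, per the labels' protocols. The authors deposited 1 table of log2 signals, 35556 probe sets by 6 arrays, with values from 0.46 to 13.72; that they are log2 was read from this range. MAS5 is named in the submitters' processing notes, with no role. How signals were summarized, background-corrected and scaled is not given there. The number of arrays limits the precision.

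Gene names came from the platform annotation, with symbols updated by gene identifier in RefSeq (GRCm38.p6). Of the probe sets, 21789 have 1 symbol, 1621 have several, and 12146 are not listed. Genotypes were compared with limma 3.58.1 in R 4.3.3 (lmFit, eBayes with an intensity trend), two-sided, over 24898 probe sets whose mean reached the 30th percentile, with Benjamini-Hochberg adjustment over all of them. All 35 measured members passed this filter. The code was tested on simulated arrays. All members may be named. Of each partner list the 4 genes with the smallest p are named, and of the pericyte and smooth muscle lists 2 each. Genes of the leukocyte, fibroblast, heart muscle, platelet, red cell and mesothelial lists are not named, and those lists are only summarized. Ligands and receptors that belong to a member, Cav1, Pdpn, Cavin4 and Myl4 with Myl7 were named outside that rule. The members and lists were chosen with earlier results of these data known. The 16 alternatives were other scalings, filters, covariates, weights, probe set rules and leaving out each array.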

Additional observations from a re-analysis of the deposited data

How the results depend on the processing

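No endothelial gene passed the adjusted threshold in limma under any of the 16 alternatives. With an unadjusted p under 0.05 there were 3 members as reported (13.7% of all probe sets), 5 after quantile normalization (13.9%), and 1 to 7 with an array left out (9.24% to 13.4%): 1 without knockout replicate 3, and 7 in the absence of wild-type replicate 1 (Cldn5, Rgcc, Prox1, Flt1, Tie1, Vwf and Car4) or wild-type replicate 3 (Cldn5, Rgcc, Prox1, Egfl7, Nos3, Icam2 and Aplnr). Their median difference of 0.05 ranged from -0.027 to 0.065 with an array left out, the lowest without wild-type replicate 3, and the cause was not tested. Cldn5 stayed below 0 with an unadjusted p under 0.05 in all 16 alternatives, Prox1 in 12 (not after quantile normalization or median centring, nor without knockout replicate 3 or wild-type replicate 2) and Rgcc above 0 in 14. The count over all probe sets was 1 as reported, 130 after quantile normalization, 105 after median centring and 48 with the filter at the 50th percentile. It was 361 with annotated probe sets alone, where the fit itself was rerun on those probe sets. It was 34 with age as a covariate, 126 with array weights and 0 to 11 with an array left out. With the replicate block it was 0. No sign was seen that the replicate numbers pair the arrays. The correlations of deviations were -0.06, 0.02 and -0.06, and 1 of the 3 knockout arrays correlated best with its own number. With 3 arrays per genotype this cannot show that arrays of the same number share nothing.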
